A study of Mus musculus with 7 samples.

Results

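ETS factors are transcription factors that bind DNA through a shared ETS domain, which reads a GGAA core. The genes described here are 10 members of that family in mouse keratinocytes: the epithelial factors Elf3, Elf5 and Ehf, the ERK-regulated factors Ets1, Ets2 and Elk3, the PEA3-group factors Etv4 and Etv5, the repressor Etv6, and the broadly expressed Elf1. They were chosen by name, and every probe set annotated to exactly 1 of these symbols was used. This gave 19 probe sets for all 10 genes, out of 22626 probe sets tested and 12393 genes.

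RNA of primary keratinocytes, the main cell type of the epidermis, was measured on Affymetrix arrays, each sample on its own array. Cells had been given Trp63 siRNA on 5 arrays (replicates 1, 2, 3, 4 and 7) and a non-specific control siRNA on 2 arrays (replicates 5 and 6), in a transient transfection that ended at 48 h. Trp63 encodes p63, a p53-family transcription factor of stratified epithelia, and the comparison asks how its silencing alters messenger RNA levels. The labels give no strain or age, and nothing in them tells separate cultures from repeat arrays. The p-values therefore cover the spread of these arrays alone, which may be technical.

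In stratified epithelia Elf3, Ehf and Elf5 form the epithelium-specific subgroup of ETS factors, and Elf3 and Ehf are known for binding control regions of differentiation genes. Ets1, Ets2 and Elk3 are substrates of the ERK branch of the MAPK cascade, which changes how strongly they activate or repress transcription. Etv4 and Etv5 lie downstream of receptor tyrosine kinases in another way, since their own messenger RNA is a common read-out of FGF and ERK signalling.

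The silencing was visible on all 5 arrays. The brightest Trp63 probe set read 503 ± 31.1 with Trp63 siRNA (SD, n = 5) and 1565 ± 167 with control siRNA (SD, n = 2), a log2 difference of -1.61 (SE 0.088, limma adjusted p = 1.0e-05). The fall was smaller at the dimmer Trp63 probe sets, with log2 differences of -0.49 and -0.54 (limma adjusted p = 0.00228 and 0.000339). These averaged 163 and 139 with Trp63 siRNA and 235 and 209 with control siRNA. There too every silenced array lay below both controls. All 9 measured keratinocyte markers (of 10 listed, Trp63 among them) were lower by limma, against 8.57% of all genes. Their summed intensities were 45655 to 49798 with Trp63 siRNA and 62005 to 64819 with control siRNA. In bulk RNA, fewer cells of a type and less RNA per cell cannot be told apart. No intensity in the table was 0, and the lowest on any array was 58.5. None of 9 measured melanocyte markers, of 10 listed, passed between the groups by limma, and none had an unadjusted p below 0.05. They separated the arrays instead: their summed intensity was 11481 and 12153 in silenced replicates 1 and 2 and 6997 to 7382 in replicates 3, 4 and 7, against 10230 in control replicate 5 and 6839 in control replicate 6. Bacterial control probe sets also separated the arrays, with mean log2 levels of 9.35 to 9.42 in silenced replicates 2, 3 and 7, against 9.17 to 9.19 in silenced replicates 1 and 4 and 9.17 and 9.18 in the controls. The poly-A controls among them showed this gap, with 8.315 to 8.453 in silenced replicates 2, 3 and 7 and 7.941 to 8.09 elsewhere. The bio and cre controls did not. They read 10.208 to 10.232 in silenced replicates 2, 3 and 7, but 10.194 in control replicate 6. Silenced replicates 1 and 4 read 10.106 and 10.133 there, and control replicate 5 read 10.123. Both splits were read from the arrays themselves, and calls of named genes that ended with either as a block, or within its low side, are given beside them. No control array was on the high side of the bacterial control split. With that block the difference therefore came from the 2 silenced and 2 control arrays of the low side alone. The block and the low side share the same difference, so they are not separate checks.

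Elf3 and Elf5 were the epithelial members that rose, and the windows around their annotated start sites are shown for that reason. Each window runs from 250 bases before to 50 bases after a RefSeq start site in GRCm38.p6, 7 of the 10 genes had such windows, and capitals mark GGAA on either strand, the core that ETS factors read. The Elf3 window is chr1:135258423-135258722 (minus strand), and the Elf5 windows are chr2:103411848-103412147 and chr2:103423818-103424117 (both plus strand).
Elf3: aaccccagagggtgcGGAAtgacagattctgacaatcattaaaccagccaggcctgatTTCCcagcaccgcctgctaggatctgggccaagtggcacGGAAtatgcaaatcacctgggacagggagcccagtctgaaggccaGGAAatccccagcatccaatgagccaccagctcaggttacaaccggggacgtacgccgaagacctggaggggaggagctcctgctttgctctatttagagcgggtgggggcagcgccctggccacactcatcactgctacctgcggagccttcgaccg
Elf5, upstream start: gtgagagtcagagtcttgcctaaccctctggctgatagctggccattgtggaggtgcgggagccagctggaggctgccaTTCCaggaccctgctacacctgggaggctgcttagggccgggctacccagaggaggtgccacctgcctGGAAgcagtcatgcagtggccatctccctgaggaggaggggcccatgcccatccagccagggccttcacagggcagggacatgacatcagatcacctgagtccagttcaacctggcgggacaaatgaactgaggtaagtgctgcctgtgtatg
Elf5, downstream start: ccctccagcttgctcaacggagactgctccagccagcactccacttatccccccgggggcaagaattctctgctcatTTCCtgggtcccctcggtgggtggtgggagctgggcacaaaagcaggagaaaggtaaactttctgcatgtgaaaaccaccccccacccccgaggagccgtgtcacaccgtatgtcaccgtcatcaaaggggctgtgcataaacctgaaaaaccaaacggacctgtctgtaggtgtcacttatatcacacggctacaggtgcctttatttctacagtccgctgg
The Elf3 window held 4 GGAA cores and the Elf5 windows held 2 and 1. Such a core stood in 96.0% of all 32851 mouse windows of this length, so its presence is the usual case. The longer ETS sequence CCGGAAGT was in none of the 10 windows of the 7 genes, against 3.89% of all windows. The p53-family half-site was also in none of the 10, against 8.36% of all windows. These matches describe letters only and do not locate a bound site.

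Across the family, 6 of 19 probe sets were higher with Trp63 siRNA and 1 was lower at a limma adjusted p below 0.05, and 12 did not pass. Among all probe sets tested 7.83% were higher and 8.16% lower by that rule. Counted by gene at its brightest probe set, Elf5, Elf3 and Ets1 rose, Etv4 fell and 6 genes did not pass, against 8.03% of all genes higher and 8.57% lower. The median log2 difference (Trp63 siRNA minus control siRNA) was 0.14 over the 10 genes and -0.04 over all genes. In 7 of the 19 probe sets every silenced array lay above both controls, and in 1 every silenced array lay below, 8 of 19 without overlap in all. Over all probe sets 14.2% lay wholly higher and 22.4% wholly lower, 36.6% together. Several probe sets share a gene, so these counts are not independent. The ETS members were listed with earlier results of these data known.

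**Figure D1:**
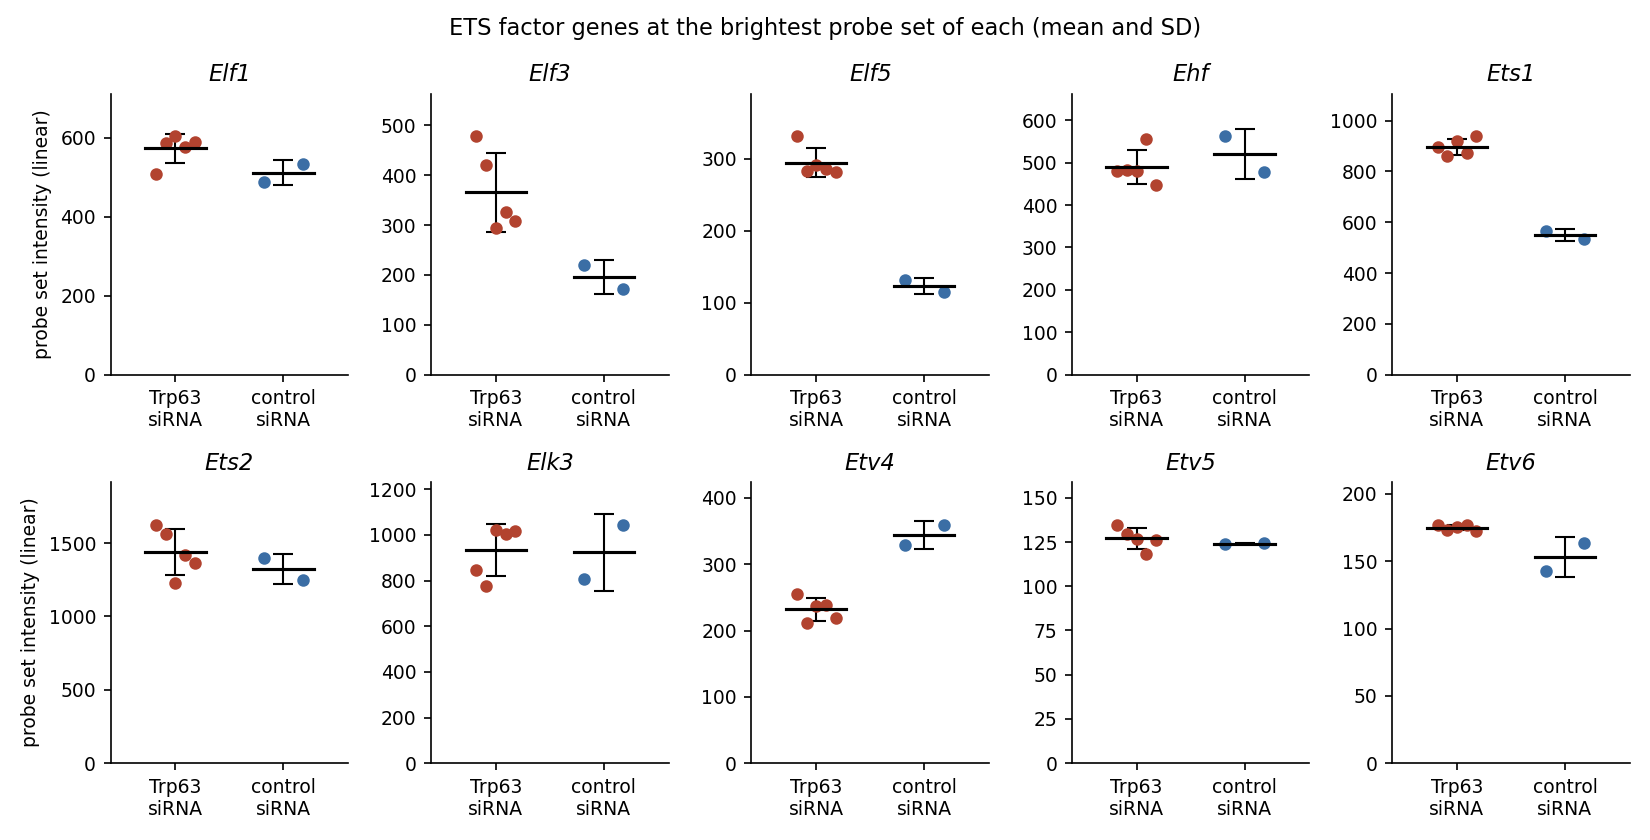
Intensity on a linear scale of each gene at its brightest probe set, 1 point per array, for Trp63 siRNA (n = 5, left) and control siRNA (n = 2, right); bars give the mean and SD. Elf5, Elf3 and Ets1 lie higher on every silenced array, Etv4 lies lower on every silenced array, Etv6 lies slightly higher without passing the test, and the groups overlap in the other 5 genes.

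Elf5, which is known for its part in mammary alveolar and placental development, changed most among the 10. Its brighter probe set (1419555_at) read 330.8, 283.4, 290.4, 285.8 and 282.0 in silenced replicates 1, 2, 3, 4 and 7, against 131.4 and 115.3 in control replicates 5 and 6. The groups lay far apart, and even the lowest silenced array was above both controls. This was a 2.23-fold rise (log2 difference 1.16, SE 0.078, limma adjusted p = 3.6e-05). Ranked by rise among the 12393 genes, Elf5 was at position 97, Elf3 at 187 and Ets1 at 278. Fold changes are on the log2(intensity + 16) scale, on which dim genes change by less than they do in linear intensity. The control mean of 123 ± 11.4 (SD, n = 2) was below the array medians of 207 to 214, where low expression and no expression are hard to separate.

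The second Elf5 probe set (1419556_at) was dimmer, with a mean level at the 26.6th percentile of all probe sets. It read 115.2, 116.1, 135.9, 140.9 and 148.1 in the silenced arrays, against 103.0 and 97.7 in the controls. It moved the same way by less (log2 difference 0.33, SE 0.089, limma adjusted p = 0.0339). Its lower silenced values were those of replicates 1 and 2. The call ended without control replicate 5 or 6 (limma adjusted p of 0.126 and 0.196), without silenced replicate 3, 4 or 7 (0.0516 to 0.0681), with the bacterial control split as a block (0.154), within its low side (0.163) and with a variance prior that ignores intensity (0.0512). The brighter Elf5 probe set passed in all 19 alternatives, between 0.94 and 1.25 on the log2 scale.

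Elf3, a factor known from late epidermal differentiation and from epithelial inflammation, rose 1.79-fold at its single probe set. It read 478.1, 419.8, 295.1, 326.8 and 309.3 in silenced replicates 1, 2, 3, 4 and 7, against 219.5 and 171.2 in control replicates 5 and 6. Every silenced array was above both controls, but replicates 1 and 2 stood well above the other silenced arrays. The log2 difference was 0.84 (SE 0.18, limma adjusted p = 0.014), with a 95% interval of 0.43 to 1.25. The call ended when control replicate 6 was left out (log2 difference 0.67, limma adjusted p = 0.146) and within the arrays of low bacterial control level, 2 against 2 (0.97, limma adjusted p = 0.069).

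Ehf, the remaining epithelial factor, which binds many enhancers of keratinocyte genes, did not pass at any of its 3 probe sets. The brightest (1419475_a_at) read 480.7, 483.3, 481.2, 555.4 and 448.0 in the silenced arrays, against 561.8 and 478.4 in the controls. The groups overlapped, and the log2 difference was -0.08 with a 95% interval of -0.30 to 0.13. The other Ehf probe sets differed by -0.04 and 0.14 (limma adjusted p = 0.849 and 0.507). The within-array log2 ratio of Ehf to Elf5 was 0.52 to 0.92 on the silenced arrays and 1.91 and 1.97 on the controls, so the related genes changed unequally. The ratio of Elf3 to Ehf was likewise separate between groups, from -0.74 to -0.01 on the silenced arrays and -1.40 and -1.30 on the controls. The ratio of Elf3 to Elf5 overlapped (0.02 to 0.54 on the silenced arrays and 0.51 and 0.68 on the controls). These ratios were not tested, and their sign carries no meaning because probe sets differ in brightness.

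**Figure D2:**
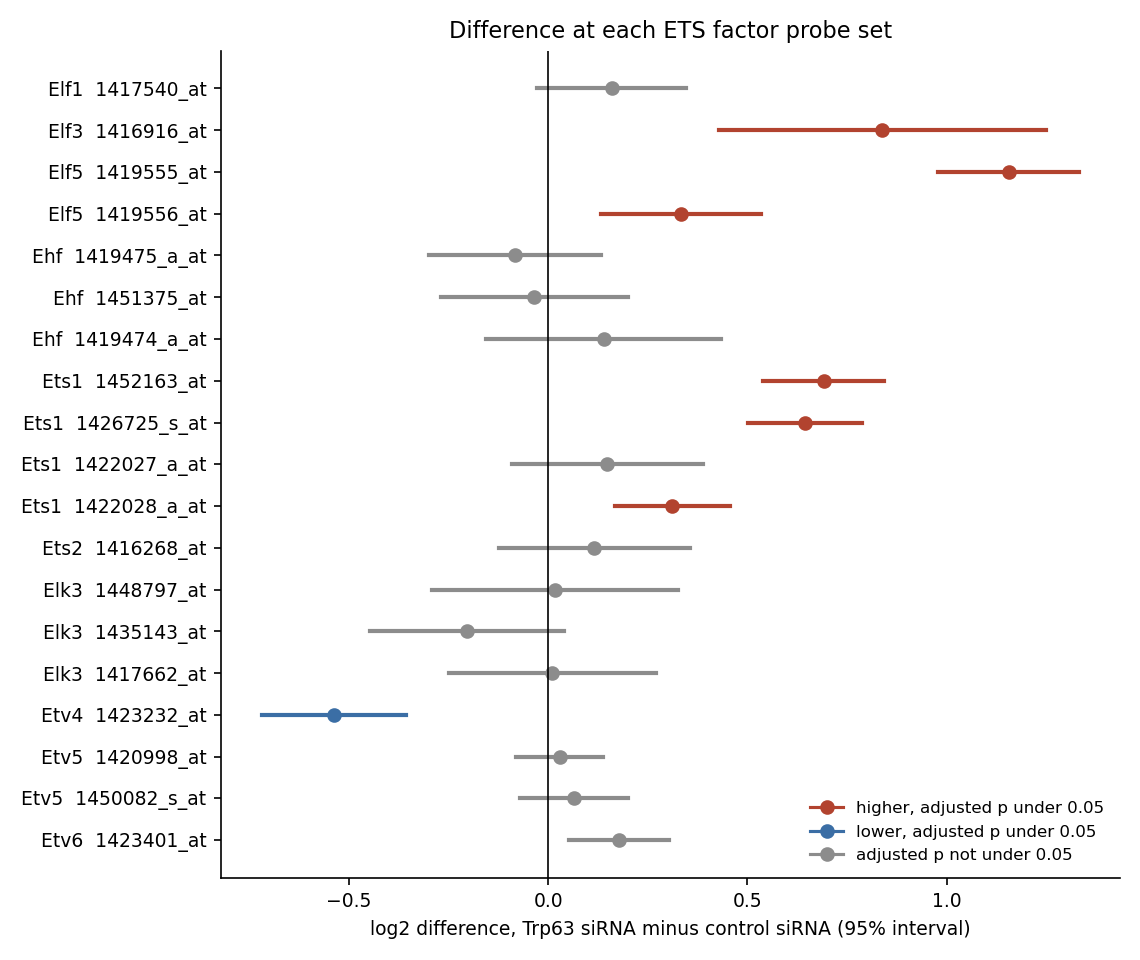
Log2 difference, Trp63 siRNA minus control siRNA, at each of the 19 probe sets with its 95% interval from the limma fit. The 2 Elf5, 1 Elf3 and 3 of the 4 Ets1 intervals lie above 0, the Etv4 interval lies below it, and the Etv6 interval lies above 0 without passing after adjustment.

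Ets1 is an ERK substrate whose forced expression in mouse epidermis is known to hold back terminal differentiation. Its brightest probe set (1452163_at) read 896.7, 860.6, 918.6, 871.8 and 937.9 in the silenced arrays, against 565.2 and 533.6 in the controls. The silenced arrays were tightly grouped and all above the controls, at a log2 difference of 0.69 (SE 0.067, limma adjusted p = 0.000222). The second probe set (1426725_s_at) gave nearly the same picture, with 850.8 to 889.3 in the silenced arrays, against 536.3 and 570.0 in the controls (0.64, SE 0.064, limma adjusted p = 0.000241). Both passed in each of the 19 alternatives.

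The dimmer pair of Ets1 probe sets moved less. One (1422028_a_at) read 188.0 to 205.6 in the silenced arrays, against 146.6 and 167.2 in the controls, a log2 difference of 0.31 (limma adjusted p = 0.0104). That call ended in fits that left out control replicate 6 (limma adjusted p = 0.126) or blocked the bacterial control split (0.0515), and within its low side (0.140). The other (1422027_a_at) read 317.3, 298.3, 350.3, 320.2 and 324.5 in the silenced arrays, against 334.5 and 248.9 in the controls, and did not pass (0.15, limma adjusted p = 0.378). Its control values lay on either side of most silenced arrays. Without control replicate 6 its difference was -0.05. Within the arrays of low melanocyte level, 3 silenced arrays and 1 control chosen after seeing the data, it was 0.39. The adjusted p of 0.00101 from limma there assumes that the lone control varies like the silenced arrays. The place of each probe set in the Ets1 transcripts was not analysed here.

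**Figure D3:**
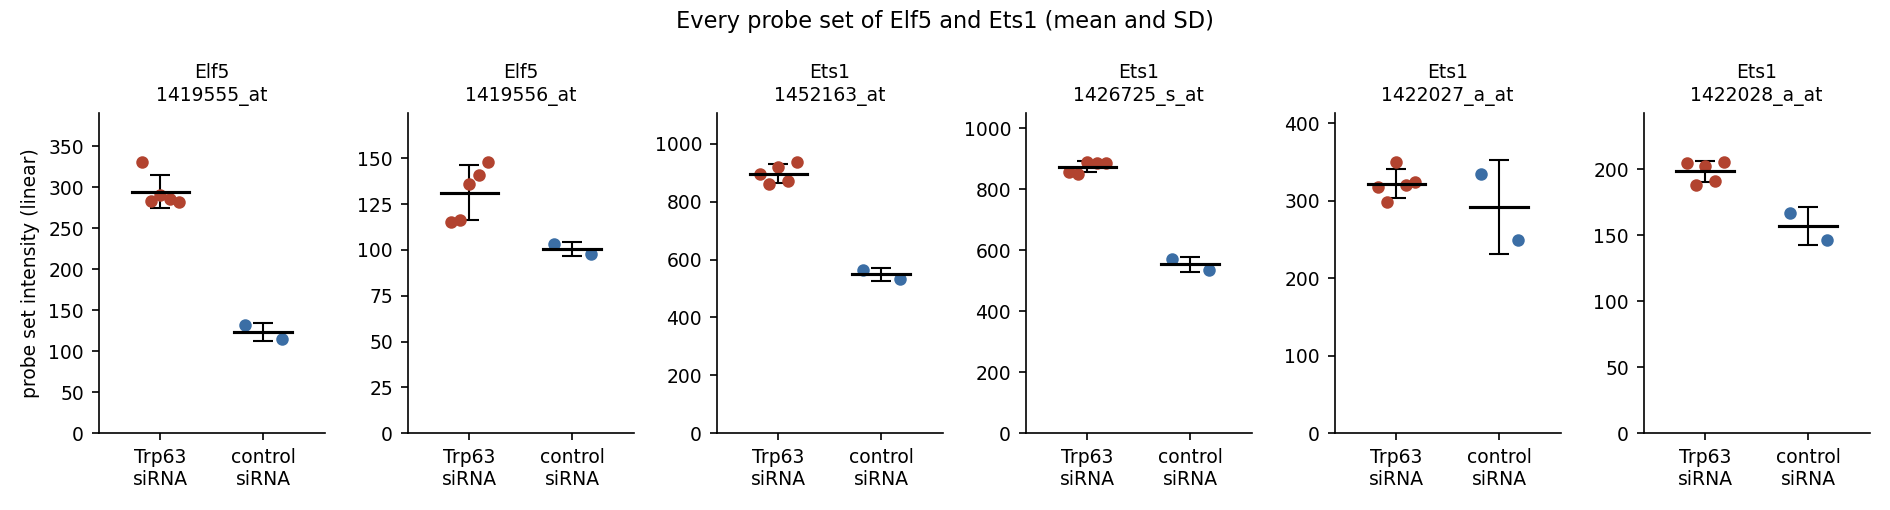
Linear intensity on each array at the 2 Elf5 and 4 Ets1 probe sets, Trp63 siRNA (n = 5, left) and control siRNA (n = 2, right), with mean and SD. The brighter probe sets of each gene separate the groups widely, while 1422027_a_at overlaps because control replicate 5 reads 334.5 and control replicate 6 reads 248.9.

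Ets2, the close relative of Ets1 and likewise an ERK substrate, did not pass. It read 1623.5, 1560.3, 1230.9, 1420.0 and 1367.2 in the silenced arrays, against 1397.7 and 1249.1 in the controls. The groups overlapped (log2 difference 0.12, SE 0.11, limma adjusted p = 0.497), and the 95% interval ran from -0.12 to 0.36. The within-array log2 ratio of Ets1 to Ets2 was -0.85 to -0.42 on the silenced arrays and -1.28 and -1.20 on the controls, without overlap and without a test.

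Elk3, a ternary complex factor that works with the serum response factor and represses until ERK phosphorylates it, varied between arrays within each group and did not pass at any of its 3 probe sets. Its brightest probe set (1448797_at) read 845.9, 775.5, 1023.7, 1003.8 and 1019.3 in silenced replicates 1, 2, 3, 4 and 7, against 804.8 and 1043.9 in control replicates 5 and 6. The 3 arrays of high melanocyte level, silenced replicates 1 and 2 and control replicate 5, were the 3 low ones. The probe set 1417662_at repeated this order, with 204.3 and 193.5 in silenced replicates 1 and 2 and 240.3 to 247.4 in replicates 3, 4 and 7, against 198.7 in control replicate 5 and 249.8 in control replicate 6. Neither passed (log2 differences 0.02 and 0.01, limma adjusted p = 0.947 and 0.96).

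The remaining Elk3 probe set (1435143_at) read 313.7 and 294.2 in silenced replicates 1 and 2 and 339.3 to 343.7 in replicates 3, 4 and 7. The controls read 327.5 in replicate 5 and 433.9 in replicate 6, so the arrays of high melanocyte level were again the low ones. This probe set did not pass between the groups (log2 difference -0.20, limma adjusted p = 0.239). It was called lower with the melanocyte split as a block (-0.23, limma adjusted p = 0.0387), a fit that called more of all probe sets than the main fit. Within the arrays of low melanocyte level, 3 silenced arrays and 1 control, its difference was -0.33. The other Elk3 probe sets did not pass with that block.

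The melanocyte split holds 2 silenced arrays and 1 control on the high side and 3 silenced arrays and 1 control on the low side. At the probe sets given next every silenced array lay beyond both controls. The direction therefore had to be the same on both sides, and only the sizes are described. The log2 difference was 1.13 among arrays of high and 1.20 among arrays of low melanocyte level for the brighter Elf5 probe set. It was 0.98 and 0.80 for Elf3, 0.62 and 0.75 for the brightest Ets1 probe set, and -0.48 and -0.60 for Etv4. These within-split values rest on 1 control each and have no test of their own here except where given above. The high side of the bacterial control split held no control array.

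**Figure D4:**
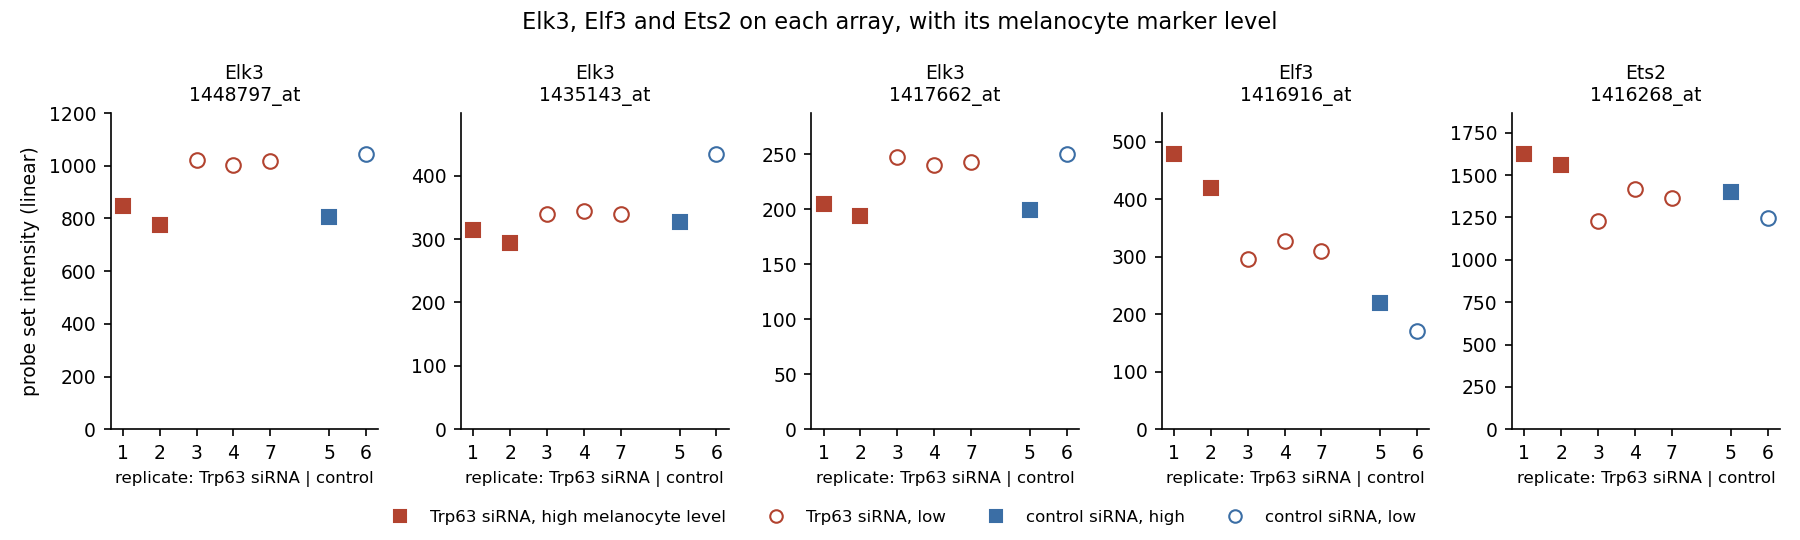
Linear intensity on each array of the 3 Elk3 probe sets, Elf3 and Ets2, with Trp63 siRNA replicates left and control siRNA replicates right in each panel; filled squares are arrays of high and open circles arrays of low melanocyte marker level. At all 3 Elk3 probe sets the filled squares lie below every open circle in both groups. In Elf3 silenced replicates 1 and 2 lie above the other silenced arrays.

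Etv4, whose expression in many tissues follows FGF receptor and ERK activity, was the member that fell. It read 254.8, 210.8, 237.7, 238.7 and 219.5 in the silenced arrays, against 328.7 and 359.3 in the controls. The groups were separate, and the difference was -0.54 on the log2 scale (SE 0.080, limma adjusted p = 0.00223), a 1.45-fold decrease. The call was lost in 1 of 19 alternatives, within the arrays of low bacterial control level (-0.45, limma adjusted p = 0.0739).

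Etv5, the partner of Etv4 in the PEA3 group, was dim and did not pass. Its brighter probe set (1420998_at) read 134.7, 129.4, 127.0, 118.0 and 126.0 in the silenced arrays, against 123.8 and 124.3 in the controls, at the 28.2th percentile of mean level. The silenced values lay on both sides of the controls, and the 95% interval of the log2 difference was -0.08 to 0.14. The second probe set (1450082_s_at) was dimmer still and differed by 0.07 (limma adjusted p = 0.502). At such levels a change in a weakly expressed gene would be hard to detect. The within-array log2 ratio of Etv4 to Etv5 was 0.64 to 0.93 on the silenced arrays and 1.30 and 1.42 on the controls, without a test.

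Etv6, an ETS repressor that assembles through its pointed domain, read 172.6 to 177.0 in the silenced arrays, against 142.6 and 163.8 in the controls. All silenced arrays were above both controls, but the difference did not pass (log2 difference 0.18, SE 0.056, limma adjusted p = 0.0615). It passed in 4 of 18 alternatives: median centring (limma adjusted p = 0.0493), array weights (0.0426), the melanocyte split as a block (0.0401) and without control replicate 6 (0.0388). Elf1, known best from lymphoid cells, read 509.4, 586.6, 603.6, 575.6 and 590.3 in the silenced arrays, against 488.6 and 533.6 in the controls. Silenced replicate 1 lay between the controls, and the difference did not pass (0.16, limma adjusted p = 0.229). Without that array it passed (0.20, limma adjusted p = 0.0407).

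Of 14 other measured ETS family genes, of 16 listed, none was higher, 1 was lower and 13 did not pass by limma, with a median log2 difference of -0.07, and 2 had an unadjusted p below 0.05. The count of 1 lower is near the 8.57% of all genes that were lower. The gene that fell was Erf, a repressor that ERK sends out of the nucleus. It read 545.3, 478.5, 410.5, 467.2 and 430.1 in the silenced arrays, against 677.9 and 667.8 in the controls (-0.52, SE 0.10, limma adjusted p = 0.00922). With only control replicate 6 kept the adjusted p from limma was 0.0733, and with only control replicate 5 kept it was 0.0744, so the call ended in both cases. It also ended with the bacterial control split as a block (-0.40, limma adjusted p = 0.0585) and within its low side (0.150). No other ETS family gene fell in these 4 fits. Among the arrays of low melanocyte level, with 1 control, Erf differed by -0.60.

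Family members known from other lineages were low on every array. Spi1, the myeloid factor PU.1, averaged 116 ± 5.29 with Trp63 siRNA (SD, n = 5) and 118 ± 0.361 with control siRNA (SD, n = 2). Erg and Fli1, known from endothelium and blood, averaged 108 and 94.3 with Trp63 siRNA and 114 and 99.9 with control siRNA. None of 10 endothelial markers passed by limma (1 had an unadjusted p below 0.05), and their summed intensity was 1384 to 1471 with Trp63 siRNA and 1442 and 1557 with control siRNA. Of 11 measured immune cell markers, of 12 listed, Cd68 rose and Tyrobp fell, with sums of 1782 to 1986 with Trp63 siRNA and 1835 and 1938 with control siRNA. Counts of 1 of 11, and of 1 of 10 fibroblast markers below, are near the 8.03% of all genes higher and 8.57% lower. Cd68 no longer passed without control replicate 6 (log2 difference 0.38 in place of 0.60, limma adjusted p = 0.226), without silenced replicate 2 or 7 (0.0552 and 0.052) and within the low bacterial control arrays (0.0957). Tyrobp no longer passed without control replicate 5 or 6 (limma adjusted p of 0.0971 and 0.112), with the bacterial control block (0.0935) and within its low side (0.263). Of 10 fibroblast markers Col1a1 rose. Their sums were 2159 and 2014 in silenced replicates 1 and 2 and 1762 to 1801 in replicates 3, 4 and 7, against 1884 in control replicate 5 and 1595 in control replicate 6. The arrays of high melanocyte level thus had the higher fibroblast sums, so that split is not particular to melanocyte markers. Col1a1 missed the threshold without control replicate 6 (limma adjusted p = 0.0504) and within the low bacterial control arrays (0.0638). The part of these cell types in the Ets1, Elf5 and Elf3 values was not tested.

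The ERK cascade that acts on these factors had 13 measured genes of 19 listed. Of these 2 fell, 1 rose and 10 did not pass, and the median log2 difference was 0.04, against 8.57% of all genes lower, 8.03% higher and a median of -0.04. Nras, a small GTPase at the top of the cascade, read 791.3 to 937.2 in the silenced arrays, against 1205.6 and 1293.0 in the controls (-0.50, limma adjusted p = 0.00303). Egfr, the EGF receptor gene, read 352.8 to 391.2, against 484.8 and 469.9 in the controls (-0.34, limma adjusted p = 0.00722). The adaptor gene Grb2 read 644.9 to 703.0, against 544.0 and 572.7 in the controls (0.28, limma adjusted p = 0.0226). Without control replicate 6 none of these passed (limma adjusted p = 0.0506 for Nras, 0.0537 for Egfr and 0.0889 for Grb2), and without control replicate 5 Egfr and Grb2 did not (0.0672 and 0.166). Within the low bacterial control arrays none passed either (0.0845 for Nras, 0.135 for Egfr and 0.280 for Grb2). Grb2 also lost its call with that split as a block (0.0975) and without silenced replicate 3 or 7 (0.0566 and 0.0542).

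Genes that ERK activity induces, or that feed back on it, went in both directions. The list had 15 measured genes of 18, of which 3 rose and 2 fell, and 10 missed the threshold. Its median log2 difference was -0.09, and the shares over all genes were 8.03% higher and 8.57% lower. Dusp6, the phosphatase gene that removes ERK phosphorylation and is often induced with Etv4, read 413.6, 338.8, 394.0, 397.0 and 410.3 in the silenced arrays, against 556.7 and 485.9 in the controls (-0.40, limma adjusted p = 0.0184). Ccnd1, the cyclin D1 gene, fell by less (-0.26, limma adjusted p = 0.0173). Dusp6 no longer passed when control replicate 5 (limma adjusted p = 0.177) or 6 (0.051) was left out, and Ccnd1 no longer passed when 6 was (0.173). With the bacterial control block neither passed (0.105 for Dusp6 and 0.0981 for Ccnd1), nor within its low side (0.191 and 0.220). Errfi1, an inhibitor of the EGF receptor, read 1565.6 to 1651.5 in the silenced arrays, against 703.6 and 629.5 in the controls. Phlda1 and Ier3 were the other genes that rose, at 0.55 and 0.17, and Ier3 was chosen for naming after its values were seen. Phlda1 did not pass within the low bacterial control arrays (limma adjusted p = 0.0845). Ier3 did not pass in 8 alternatives, at adjusted p of 0.0572 to 0.246 from limma: quantile normalisation, the bacterial control block and its low side, and without control replicate 5 or 6 or silenced replicate 3, 4 or 7. Errfi1 passed in all 19 alternatives. The count that fell was 5 with the melanocyte split as a block and 0 with the bacterial control split as a block. The first of these fits called more of all probe sets than the main fit. The other took its difference from 2 silenced and 2 control arrays and called fewer, as given below.

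Partners and regulators of ETS proteins gave no call in the main fit. Of 11 measured of 17 listed, none passed by limma and none had an unadjusted p below 0.05, with a median of -0.04. Mrtfa, a cofactor of the serum response factor, and Crebbp, a coactivator, had the smallest p in this list, at -0.20 and -0.14 (limma adjusted p = 0.195 and 0.169). Array weights, or leaving out silenced replicate 1, gave 1 lower call each. In both it was Mrtfa (log2 differences -0.25 and -0.26, limma adjusted p = 0.0451 and 0.0174). Reading each gene at its probe set of smallest p gave 1 higher and 1 lower. Among the arrays of low melanocyte level, with 1 control, Mrtfa and Crebbp differed by -0.28 and -0.17.

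Genes described as ETS targets in epithelia had 19 measured members of 22 listed, of which 11 rose, 1 fell and 7 did not pass. Over all genes 8.03% were higher and 8.57% lower. The median of the list was 0.47, against -0.04 over all genes. This list was written with large rises of some of its genes already known, so its count is not independent evidence of direction. Timp1, an inhibitor of matrix metalloproteinases, read 378.3, 327.5, 370.9, 359.8 and 351.6 in the silenced arrays, against 222.0 and 197.5 in the controls (0.73, SE 0.076, limma adjusted p = 0.000332). Plaur, the urokinase receptor gene, rose 1.71-fold, and the simple-epithelium keratins Krt18 and Krt8 rose 10.1-fold and 4.52-fold. Tgm3, a transglutaminase gene of late differentiation and the member that fell, read 144.2 to 164.5 in the silenced arrays, against 192.5 and 200.2 in the controls (-0.33, limma adjusted p = 0.00566). Tgm3, named after its values were seen, did not pass in the fit that left out control replicate 6 (limma adjusted p = 0.0678) or within the low bacterial control arrays (0.129). Bcl2l1, a survival gene also named after its values were seen, rose 1.54-fold (limma adjusted p = 0.0008). Sprr1a and Sprr1b, named likewise, rose by less firm margins (0.47 and 0.21, limma adjusted p = 0.0373 and 0.0319). With the bacterial control block neither passed (limma adjusted p = 0.110 and 0.141). Nor did they with a variance prior that ignores intensity (0.0602 and 0.0673). Without control replicate 6 their differences were 0.19 and 0.11.

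**Figure D5:**
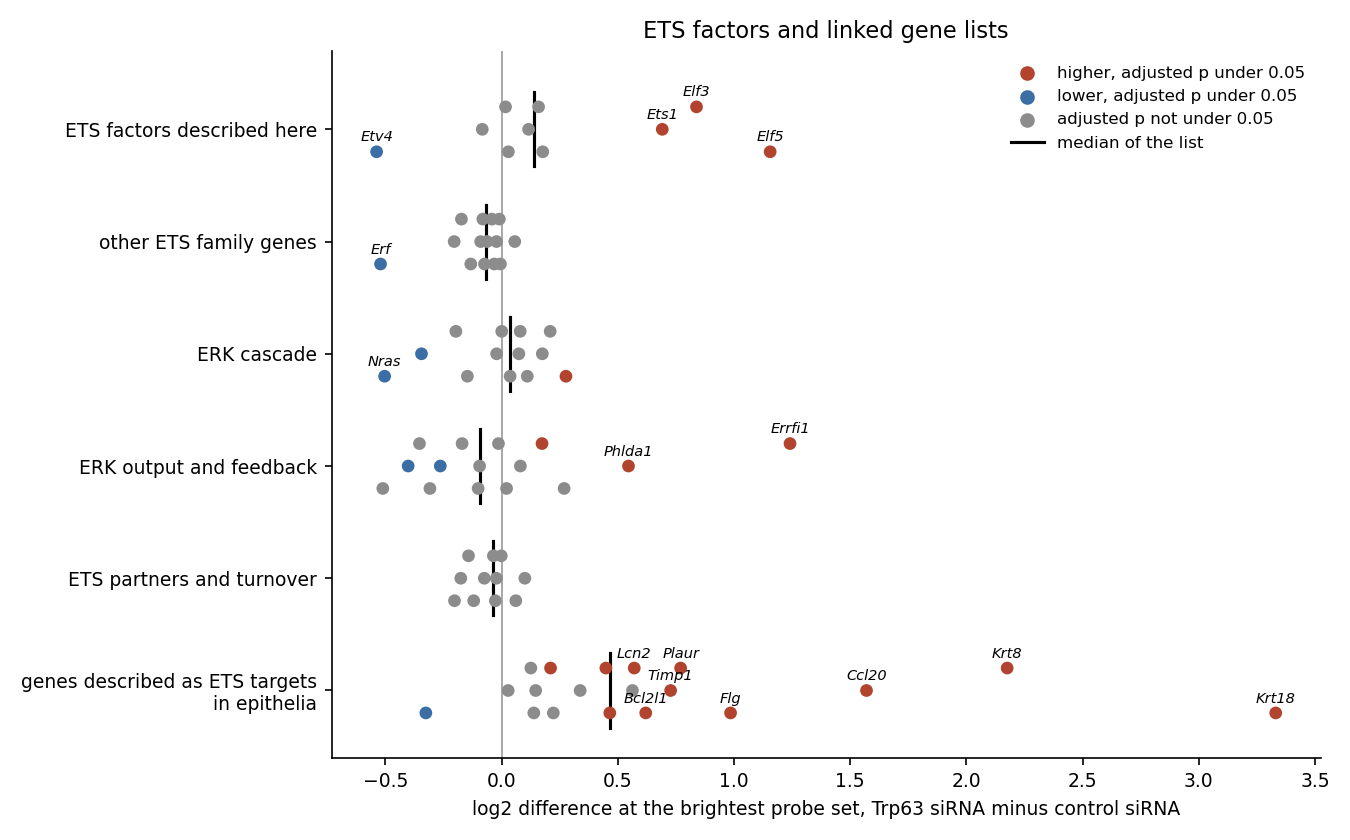
Log2 difference, Trp63 siRNA minus control siRNA, at the brightest probe set of each measured gene in 6 lists, 1 point per gene, with a black line at each list's median and vertical offsets only for legibility. Genes described as ETS targets lie mostly above 0 (median 0.47), the other ETS family genes and the partners lie close to 0 apart from Erf, and the ERK lists spread to both sides.

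The genes most like Elf5 over the 7 arrays were Pea15a, Kctd5, Wdr45, Cgnl1 and Tnfaip8l1, with Pearson r of 0.997 to 0.998 among 6883 genes at or above the median level. Those most like Etv4 were Tmem11, Necap1, Slc16a3, Ifrd2 and Smim3, with r of 0.993 to 0.994. The arrays share a group structure of 5 and 2, which sets most of such a correlation, so these values are a description only.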

How the data were processed

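Per the labels' protocols, total RNA was extracted with Trizol, made into biotinylated cRNA and hybridised to Affymetrix arrays. The deposited table holds 1 linear intensity per probe set and array. The sources used here do not give how the authors summarised, background-corrected and normalised these intensities. Median intensities of 207 to 214 per array were close, so values were used as deposited.

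Of 22690 probe sets, 64 array controls were left out and 22626 tested. Intensities became log2(intensity + 16) and were compared with limma 3.58.1 in R 4.3.3 (lmFit, eBayes with a variance trend), adjusted by Benjamini-Hochberg over all probe sets, threshold 0.05. The platform annotation gave 20380 probe sets 1 symbol, 691 several and 1555 none. A gene of a list was read at its brightest probe set, without a filter on dim values. The members and lists were chosen with earlier results of these data known. Beside the 10 members and Trp63, the rule named up to 4 called genes of smallest p per linked list, or the 2 of smallest p where none passed, and the 5 genes most correlated with the top riser and the member that fell.

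No 2 arrays held identical values at any probe set. The fit was tested on simulated arrays (5 against 2, 22626 probe sets). It found 45 of 50 probe sets with a log2 shift of 0.5, 98 of 100 with a shift of 1 and 50 of 50 with a shift of 2, and 14 of its 207 calls were false. The real arrays gave 3618 calls, so these rates need not hold for them. Alternatives covered normalisation, pseudocounts of 1 and 64, a filter at the median level, variance models, array weights, blocks for the melanocyte and bacterial control splits (at the largest gap in mean level), the probe set chosen for a gene of a list and leaving out each array. Fits within the low side of each split were added after seeing the data. The array number limits precision. Figures used matplotlib 3.10.9 in Python 3.11.15.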

Additional observations from a re-analysis of the deposited data

Results flagged for a closer look

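At 2 of the 19 probe sets, 1 of the 5 silenced arrays lay further from the others than Dixon's 95% criterion allows (0.71 for 5 values). Chance alone would flag about 5% of such groups. In both cases it was silenced replicate 1. Elf1 read 509.4 there, against 575.6 to 603.6 on the other silenced arrays. The brighter Elf5 probe set read 330.8 there, against 282.0 to 290.4 on the other silenced arrays, and without that array Elf5 still passed.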

How the results depend on the processing

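No paired analysis was possible because no replicate number occurs in both groups. Over the 19 probe sets, 312 of the recomputed differences kept their direction and their side of the threshold, 14 were weaker, 8 passed newly and 22 turned sign. All 22 belonged to differences that had not passed and did not pass when turned. With all arrays, 6 probe sets were higher and 1 lower. Leaving out 1 array at a time gave 4 to 7 higher and 1 lower in each case. The count over all probe sets was 3618, and 1374 to 5502 when 1 array was left out (1374 without control replicate 6, 2013 without control replicate 5 and 5502 without silenced replicate 1). Lone controls were assumed to vary like the silenced arrays. With the melanocyte split as a block 5458 probe sets were called, and 2 ETS factor probe sets were lower (Etv4 and Elk3 1435143_at). With the bacterial control split as a block, where the difference came from 2 silenced and 2 control arrays, 1920 were called. Within the arrays of low melanocyte level 6883 were called, with the same 2 ETS factor probe sets lower. Within those of low bacterial control level 783 were called, and of the ETS factor probe sets 3 were higher (1 of Elf5 and 2 of Ets1) and 0 lower. The cause of these shifts was not tested.

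Turned signs concerned small differences. At Elk3 1448797_at the difference was -0.0165 with the melanocyte block, -0.0391 within the arrays of low melanocyte level and between -0.17 and 0.20 over left-out arrays. At Elk3 1417662_at it was -0.0176 with the melanocyte block, -0.0074 with the bacterial control block and within its low side, -0.0343 within the arrays of low melanocyte level and between -0.14 and 0.16 over left-out arrays. The Ehf differences ranged over left-out arrays from -0.20 to 0.0294 (1419475_a_at), -0.14 to 0.0722 (1451375_at) and -0.0623 to 0.34 (1419474_a_at), and the first pair were 0.042 and 0.0648 within the arrays of low melanocyte level. Ets1 1422027_a_at ranged from -0.0534 to 0.35 over left-out arrays, and Etv5 1420998_at was -0.0068 within the arrays of low melanocyte level.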

Other observations

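Some immediate early genes split along the melanocyte level of the arrays, as Elk3 did but the opposite way. The genes here were picked after their values were seen. Egr1, an early target of ERK and ternary complex factors, read 838.1 and 700.5 in silenced replicates 1 and 2 and 386.1 to 448.2 in replicates 3, 4 and 7, against 1005.9 in control replicate 5 and 590.6 in control replicate 6. Fos read 296.0 and 296.9 in silenced replicates 1 and 2 and 188.8 to 207.2 in replicates 3, 4 and 7, against 302.0 in control replicate 5 and 231.7 in control replicate 6. Neither gene passed between Trp63 siRNA and control siRNA (limma adjusted p = 0.296 and 0.577). Myc, from the same list of ERK output and feedback genes, split the other way. It read 1104.0 and 1039.1 in silenced replicates 1 and 2 and 1180.9 to 1249.8 in replicates 3, 4 and 7. The controls read 1320.5 in replicate 5 and 1668.1 in replicate 6.

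Tgfbr2, the TGF-beta receptor gene that Elf3 is known to activate, read 2630.7 and 2675.2 in silenced replicates 1 and 2 and 3538.0 to 3562.0 in replicates 3, 4 and 7, against 1756.3 in control replicate 5 and 2588.5 in control replicate 6. All silenced arrays were above both controls, and the difference did not pass (log2 difference 0.56, limma adjusted p = 0.0563).

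Gabpa, the ETS family gene of a regulator of respiratory genes, read 271.4 in silenced replicate 1 and 393.1 to 419.6 on the other silenced arrays, against 417.5 and 438.8 in the controls. The ERK effector kinase gene Rps6ka3 read 429.2 in silenced replicate 1 and 778.5 to 843.9 on the other silenced arrays, against 814.5 and 829.9 in the controls. Limma's array weights gave silenced replicate 1 the lowest weight, 0.27, against 0.65 to 2.29 for the other silenced arrays and 0.91 for each control. In a group of 2 arrays both weights have to be equal, so they do not rank the controls.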
